A study of Mus musculus with 8 samples.

Results

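*Zbtb16*, *Nkd1*, *Edc3* and *Susd6* are 4 genes that carry some of the largest intragenic differences in Pol II pSer5 binding between control and *Tet3*-deficient lung SMCs. They were selected on the values compared here, for a difference of the same direction in both replicates of their intragenic peaks, and their genotype differences are therefore given as a description without a test. Together they hold 6 of the 1761 Pol II pSer5 peaks, of which 5 lie in the gene body and 1 lies at the promoter of *Susd6*. Sorted from lungs by FACS as tdTomato-labeled cells, the SMCs were treated with 100 µmol DRB for 1 h at 4 °C. Chromatin was precipitated with an antibody against Pol II pSer5. There were 2 immunoprecipitated libraries of Ctrl (WT in the labels) and 2 of Tet3smKO:T (Mut in the labels), with 4 input samples that have no values in the table used here. All mice were on a C57BL/6 background. In Tet3smKO:T mice the floxed *Tet3* allele was deleted after tamoxifen treatment of adults by a Cre recombinase under control of the α-SMA promoter, whereas Ctrl mice lacked the floxed allele and carried the Cre allele and/or the tdTomato reporter. Cells in which this promoter is inactive are not targeted. The methods state that biological replicates were used, but neither they nor the labels say whether each library came from 1 animal or from pooled animals.

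Pol II carries phosphorylated serine 5 in its C-terminal tail when it has started transcription but has not yet entered productive elongation. DRB inhibits the kinase that releases this polymerase, so that it stays close to where it initiated. Peaks of Pol II pSer5 are therefore usually found at the TSS, and a peak inside a gene body marks polymerase at a distance from it. TET3 oxidizes 5-methylcytosine to 5hmC, mostly at CpG dinucleotides. The 4 genes have different functions. *Zbtb16* encodes PLZF, a transcription factor with a BTB/POZ domain and zinc fingers that recruits corepressors. *Nkd1* encodes Naked cuticle 1, which binds Dishevelled and limits Wnt signaling. *Edc3* encodes a scaffold of the mRNA decapping complex in P-bodies. *Susd6* encodes a membrane protein with a sushi domain that responds to p53 and takes part in the turnover of MHC class I.

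The sequences below the intragenic peaks are shown because they hold far fewer CpG dinucleotides, at which most 5-methylcytosine is found, than the single promoter peak of the same set. All were read from the plus strand of GRCm38, 5′ to 3′, with CpG dinucleotides in capitals. The TSS-near peak of *Zbtb16* (chr9:48737496-48737746), the peaks of *Nkd1* (chr8:88555752-88555947) and *Edc3* (chr9:57723392-57723620) and the intragenic peak of *Susd6* (chr12:80821421-80821625) are given whole. The TSS-far peak of *Zbtb16* (chr9:48723527-48723981) is given by its central 300 nt (chr9:48723605-48723904). Of the promoter peak of *Susd6* (chr12:80790361-80790634), the part upstream of the TSS is given (chr12:80790361-80790509).
Zbtb16 intragenic TSS-near: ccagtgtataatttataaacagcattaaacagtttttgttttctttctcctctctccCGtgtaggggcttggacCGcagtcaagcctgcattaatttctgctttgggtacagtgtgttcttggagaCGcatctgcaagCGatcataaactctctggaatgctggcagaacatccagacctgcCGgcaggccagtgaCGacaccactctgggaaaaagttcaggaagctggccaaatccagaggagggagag
Zbtb16 intragenic TSS-far: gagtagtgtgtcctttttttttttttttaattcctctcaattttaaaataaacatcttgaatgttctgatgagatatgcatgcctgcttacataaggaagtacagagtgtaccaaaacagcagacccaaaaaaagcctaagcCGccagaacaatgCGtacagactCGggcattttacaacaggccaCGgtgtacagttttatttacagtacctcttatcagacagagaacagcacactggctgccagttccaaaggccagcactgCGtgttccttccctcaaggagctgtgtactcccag
Nkd1 intragenic: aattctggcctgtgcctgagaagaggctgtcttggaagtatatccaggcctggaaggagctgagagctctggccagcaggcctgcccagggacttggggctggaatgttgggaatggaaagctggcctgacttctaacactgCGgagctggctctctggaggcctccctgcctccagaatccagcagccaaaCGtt
Edc3 intragenic: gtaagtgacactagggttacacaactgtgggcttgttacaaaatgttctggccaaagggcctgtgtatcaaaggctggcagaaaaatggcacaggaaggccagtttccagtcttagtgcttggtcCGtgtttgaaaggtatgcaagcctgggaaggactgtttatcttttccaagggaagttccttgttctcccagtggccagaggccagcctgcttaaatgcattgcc
Susd6 intragenic: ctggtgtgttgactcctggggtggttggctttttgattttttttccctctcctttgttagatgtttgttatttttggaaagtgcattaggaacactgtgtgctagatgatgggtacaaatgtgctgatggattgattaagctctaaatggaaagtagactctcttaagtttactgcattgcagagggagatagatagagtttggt
Susd6 promoter: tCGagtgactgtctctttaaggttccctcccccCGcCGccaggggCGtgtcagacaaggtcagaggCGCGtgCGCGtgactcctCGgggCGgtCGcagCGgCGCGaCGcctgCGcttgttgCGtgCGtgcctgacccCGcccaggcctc

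The CpG content of the 5 intragenic peaks ranged from none to 2.39 per 100 nt, and the promoter peak of *Susd6* held 13.5 per 100 nt. The TSS-near peak of *Zbtb16* contained 6 CpG dinucleotides at a GC content of 48.6%, and the whole TSS-far peak contained 8 at 44.8%. The *Nkd1* peak, with 58.2% the richest in GC of the 5, had 2 CpG dinucleotides, or 0.122 of the number its base composition would give. In the *Edc3* peak there was 1, and in the intragenic peak of *Susd6* there was none at a GC content of 39.5%. Among all 230 gene-body peaks the median was 2.45 CpG dinucleotides per 100 nt at 56.8% GC, and 10.4% had none. In contrast, the promoter peak of *Susd6* had 37 CpG dinucleotides at 73.7% GC, close to the number given by its composition (ratio 1.01). The 1125 promoter peaks had a median of 11.1 per 100 nt at 68.8% GC, and 0.178% of them had none. In GC content, the *Nkd1* peak was above 53.9% of gene-body peaks, and the other 4 intragenic peaks were above 7.39% to 30.4% of them. These are features of the reference sequence, and 5hmC itself was not measured in the values used here.

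**Figure D1:**
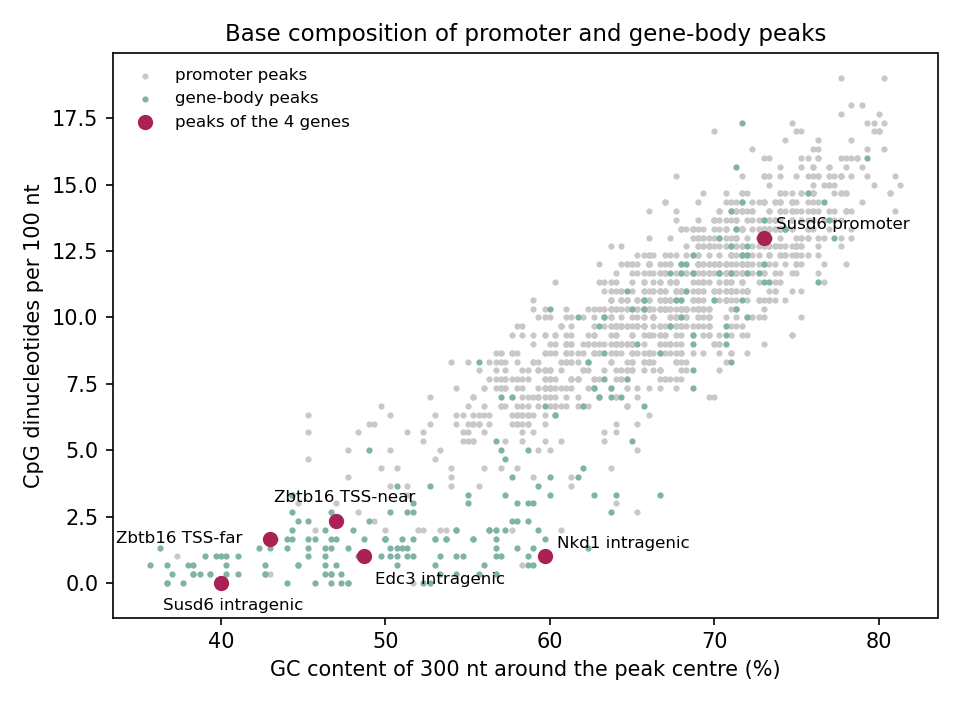
GC content in percent (x axis) and CpG dinucleotides per 100 nt (y axis) of the 300 nt around the centre of each promoter peak (grey) and gene-body peak (green), with the 6 peaks of the 4 genes in red. The 5 intragenic peaks lie at 2.33 CpG dinucleotides per 100 nt or fewer, and the *Susd6* promoter peak lies at 13.0 within the cloud of promoter peaks.

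Short motifs were searched on both strands of the 300 nt around each peak centre. The GC box, GGGCGG, had no match around any of the 5 intragenic peaks and 3 matches at the *Susd6* promoter, whereas 32.2% of gene-body windows, 73.7% of promoter windows and 63.2% of all windows held a match. TATAAA had 2 overlapping matches, on opposite strands, in the TSS-near peak of *Zbtb16* and 1 match beside the *Edc3* peak, compared with 9.57% of gene-body windows and 4.49% of all windows with a match. The motif of ETS factors (CCGGAAG), the E-box (CACGTG), the box named after its letters CCAAT, the motif of AP-1 (TGACTCA), the CRE (TGACGTCA) and the CArG box bound by SRF had no match in the 6 windows. Of all windows, 26.2%, 9.71%, 25.4%, 4.60%, 3.35% and 0.511% held a match to these motifs, in the same order. A match describes letters of the sequence and not a bound site.

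All 5 intragenic peaks lay in introns, far from the annotated start of their gene. Exons and introns were read from GENCODE M21, in which the gene coordinates of 931 of the 1355 peaks with an assigned gene (68.7%) were identical to those in the deposited table. *Zbtb16* (ENSMUSG00000066687) is transcribed from the minus strand of chromosome 9, from 48836222 to 48654297, and spans 182 kb. Both of its peaks were in intron 3 of 6, at 98.6 and 112 kb from the TSS and 13.9 kb apart, and the nearest exon was 5718 nt from the TSS-near and 6158 nt from the TSS-far peak. *Nkd1* (ENSMUSG00000031661, chromosome 8, 88521354 to 88594884, plus strand) had its peak 34.5 kb from the TSS, in intron 3 of 9 of transcript Nkd1-201 and intron 1 of 7 of Nkd1-202. The nearest annotated transcript start, that of Gm45496-201, was 4183 nt away. The *Edc3* peak was 15 kb into the gene (ENSMUSG00000038957, chromosome 9, 57708540 to 57752499, plus strand), in intron 3 of 6 of Edc3-201 and 3566 nt from the nearest exon. *Susd6* (ENSMUSG00000021133, chromosome 12, 80790510 to 80880835, plus strand) had its intragenic peak 31.0 kb from the TSS, in intron 1, which is 37.2 kb long. Its promoter peak was centred 12 nt from the TSS and overlapped exon 1. An intronic position was common among gene-body peaks, since 196 of 228 (86.0%) were centred outside the exons of their gene, and the median distance of the 230 gene-body peaks to the TSS was 42.2 kb. *Zbtb16*, *Nkd1* and *Edc3* had no peak at the TSS, so that only *Susd6* allowed a comparison of gene body and promoter within a gene.

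**Figure D2:**
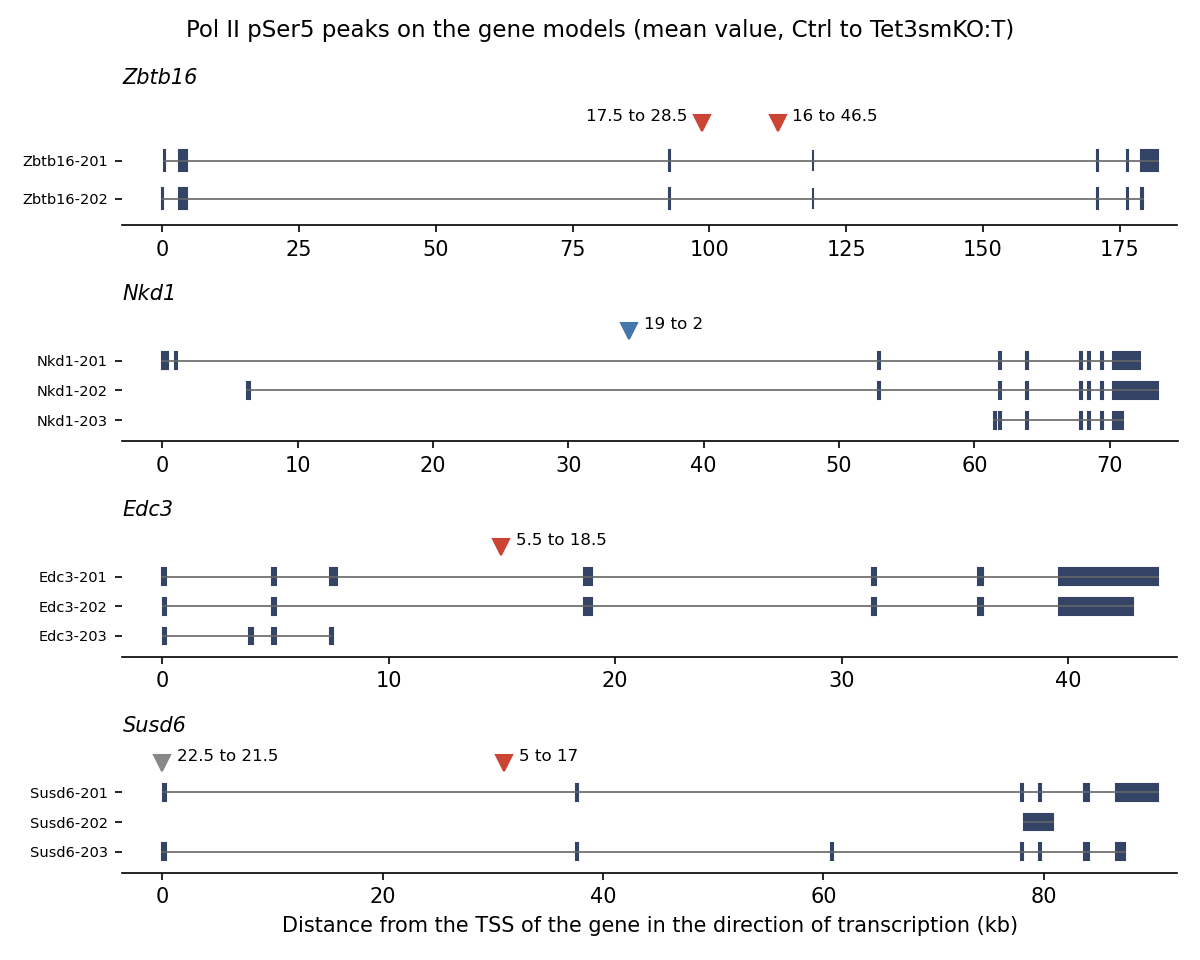
Position of the 6 Pol II pSer5 peaks (triangles) on the GENCODE M21 transcripts of the 4 genes, with exons as boxes and introns as lines; the x axis gives the distance from the TSS in kb in the direction of transcription. The numbers are mean normalised read numbers in Ctrl and Tet3smKO:T (n = 2 each); red triangles mark peaks higher in Tet3smKO:T, the blue triangle the lower peak of *Nkd1* and the grey triangle the *Susd6* promoter peak, at 22.5 and 21.5.

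The values of a peak are normalised read numbers, rounded to whole numbers. Summed over all peaks, they came to 25673 to 27058 per library. The values of each library were read as whole reads multiplied by a single step, estimated at 0.690 to 1.25. This gives about 21603 to 37207 reads in peaks per library, and median values were 13 or 14. Only in Ctrl 2 and Tet3smKO:T 2, with steps of 1.25 and 1.20, could values have failed to fit whole reads. The error of the step was not estimated. The methods describe a subtraction of input, and whether the values used here had been corrected in this way could not be told. Intervals given below are 95% intervals from these estimated reads and cover counting error only. A log2 difference is the mean of log2(value + 1) in Tet3smKO:T minus that in Ctrl, with a standard error from limma, and it understates the change of low peaks. No peak was assigned to *Tet3*, nor to any of 10 marker genes of smooth muscle and 5 each of endothelium, epithelium, hematopoietic cells and fibroblasts, so that neither the deletion nor the cell type could be checked in these libraries. In sorted cells, fewer cells with bound polymerase and less polymerase per cell cannot be told apart.

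Of the 5 intragenic peaks, 4 were higher in both Tet3smKO:T libraries than in both Ctrl libraries and 1, in *Nkd1*, was lower. This count was fixed by the choice of the genes. Without overlap of the genotypes, 17.1% of all peaks were higher in Tet3smKO:T and 16.6% were lower, and among gene-body peaks these shares were 22.6% and 14.8%. Across the 1761 peaks, 0 (0%) were called by limma at a Benjamini–Hochberg adjusted p-value of 0.05, where the lowest was 0.681, so the 6 peaks described here are not among peaks called at that threshold. At an unadjusted p-value of 0.05, 3.24% of peaks were higher and 3.98% lower. A quasi-Poisson test on estimated reads, used as an alternative, called 5 peaks, and limma after scaling to the mean library total called 6. The TSS-far peak of *Zbtb16* and the *Nkd1* peak were in both groups, which is no independent test since both were chosen on this contrast.

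The TSS-far peak of *Zbtb16* showed the largest difference in normalised reads of all gene-body peaks. Ctrl replicates 1 and 2 had values of 12 and 20, whereas Tet3smKO:T replicates 1 and 2 had 46 and 47. The lowest Tet3smKO:T value was thus 26 above the highest Ctrl value, and the libraries of Tet3smKO:T differed from each other by 1. The Ctrl mean of 16.0 ± 5.66 (SD, n = 2) compared to a Tet3smKO:T mean of 46.5 ± 0.707 (SD, n = 2), which is a log2 difference of 1.52 (standard error 0.30). Its mean in Tet3smKO:T ranked first among the 230 gene-body peaks, while its mean in Ctrl ranked 61st. At 455 nt, the peak was also wider than 99.1% of all peaks. The estimated reads were 29 in Ctrl and 106 in Tet3smKO:T, a ratio after scaling of 3.04 (95% interval 2.0 to 4.76).

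The TSS-near peak in the same intron differed in the same direction by a smaller amount. Ctrl libraries had 14 and 21 and Tet3smKO:T libraries 26 and 31, so that the genotypes were separated by 5, less than the 7 between the Ctrl libraries. The means of 17.5 ± 4.95 (SD, n = 2) and 28.5 ± 3.54 (SD, n = 2) gave a log2 difference of 0.69 (standard error 0.29). Without Ctrl replicate 1, the lower of the Ctrl libraries at both *Zbtb16* peaks, this difference was 0.42, and that of the TSS-far peak was 1.18. Both peaks had their lowest value in Ctrl replicate 1 and their highest in Tet3smKO:T replicate 2. Per 100 nt, the peaks reached similar values in Tet3smKO:T, with 10.4 and 12.4 for the TSS-near peak and 10.1 and 10.3 for the TSS-far peak, but in Ctrl the TSS-near peak was higher, with 5.58 and 8.37 as compared to 2.64 and 4.40. More than 1 gene-body peak was present in only 15 of 205 genes. *Zbtb16* was the only gene among these 15 in which every gene-body peak was higher in Tet3smKO:T without overlap of the genotypes, a pattern for which the gene was chosen.

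**Figure D3:**
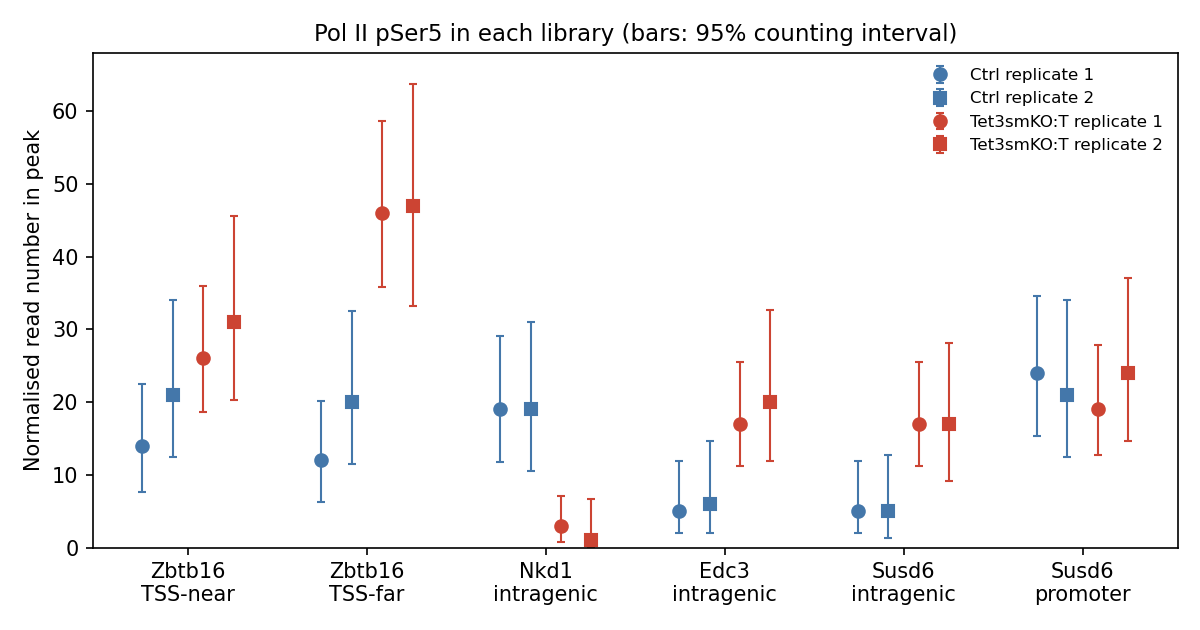
Normalised read number (y axis) of the 6 peaks in each of the 4 libraries, with Ctrl in blue, Tet3smKO:T in red, circles for replicate 1 and squares for replicate 2; bars are 95% counting intervals. The TSS-far *Zbtb16* peak lies at 46 and 47 in Tet3smKO:T, the *Nkd1* peak at 3 and 1, and the values of the *Susd6* promoter peak overlap between genotypes.

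*Nkd1* was the only one of the 4 genes whose intragenic peak had lower Pol II pSer5 values in Tet3smKO:T. Both Ctrl libraries had a value of 19, whereas Tet3smKO:T replicate 1 had 3 and replicate 2 had 1. Mean values were 19 ± 0 (SD, n = 2) and 2.0 ± 1.41 (SD, n = 2). The signal was thus near the lower end of what could be measured in Tet3smKO:T, where the estimated reads numbered 5 in all, as compared to 36 in Ctrl. The log2 difference of -2.82 (standard error 0.54) was the lowest of all 230 gene-body peaks. After scaling, the ratio of Ctrl to Tet3smKO:T reads was 8.66, with a wide interval of 3.39 to 28.3 since so few reads were left. In absolute terms, the difference of -17.0 tied with that of 1 other gene-body peak. The identical Ctrl values corresponded to an estimated 21 reads in replicate 1 and 15 in replicate 2.

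The intragenic peaks of *Edc3* and *Susd6* were alike in having low Ctrl values and values between 17 and 20 in Tet3smKO:T. For *Edc3*, Ctrl libraries had 5 and 6 and Tet3smKO:T libraries 17 and 20. The means were 5.50 ± 0.707 (SD, n = 2) and 18.5 ± 2.12 (SD, n = 2), with a log2 difference of 1.58 (standard error 0.31). The smallest distance between the genotypes, 11, exceeded the distances of 1 and 3 between replicates. Estimated reads numbered 11 in Ctrl and 42 in Tet3smKO:T, a scaled ratio of 3.17 (95% interval 1.61 to 6.84). The intragenic peak of *Susd6* had a value of 5 in both Ctrl libraries and of 17 in both Tet3smKO:T libraries, again a log2 difference of 1.58 (standard error 0.32). The estimated reads, which a rounded value does not always fix exactly, were 6 and 4 for Ctrl, as compared to 25 and 14 for Tet3smKO:T. The equal values of replicates are rounded, and the scaled ratio of 3.24 had an interval of 1.59 to 7.28 from counting error.

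At the promoter of *Susd6* the genotypes overlapped. The Ctrl libraries had 24 and 21, the Tet3smKO:T libraries 19 and 24, with means of 22.5 ± 2.12 (SD, n = 2) and 21.5 ± 3.54 (SD, n = 2). The log2 difference was -0.07 (standard error 0.26), and the scaled ratio of 0.928 had an interval of 0.602 to 1.43. In Ctrl, the promoter held 8.76 and 7.66 normalised reads per 100 nt and the intragenic peak 2.44 in both libraries. In Tet3smKO:T the intragenic peak reached 8.29 per 100 nt in both libraries, between the promoter values of 6.93 and 8.76. Both a gene-body and a promoter peak were present in 12 genes. *Susd6* had the largest excess of the gene-body over the promoter log2 difference among the 10 of them with a gene name in the table, 1.65 as compared to 0.90 in *Tcf4*, the next gene. Since *Susd6* was chosen for its gene-body difference, this order is a description.

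Whether these were the largest intragenic differences depended on the scale. By the difference in normalised reads, the 4 higher peaks were the first 4 of the 230 gene-body peaks, in the order TSS-far *Zbtb16* (30.5), *Edc3* (13.0), *Susd6* (12) and TSS-near *Zbtb16* (11). By log2 difference, 12 gene-body peaks were above all of them, with up to 2.37, and 11 of these 12 also had no overlap of the genotypes. Those 12 peaks were weak, with Ctrl means of at most 4.00 and no genotype mean above 12. On this scale *Edc3* and *Susd6* shared rank 13 with 1 other peak, and the *Zbtb16* peaks had ranks 17 and 55. The *Zbtb16* peaks had means over the 4 libraries above those of 95.4% (TSS-far) and 86.3% (TSS-near) of all peaks. These means count reads over the whole peak and include the Tet3smKO:T values used in the choice. The TSS-far peak was 455 nt wide and held 2.64 and 4.40 per 100 nt in Ctrl replicates 1 and 2. For the TSS-near peak, of 251 nt, these values were 5.58 and 8.37. For *Nkd1*, *Susd6* (intragenic) and *Edc3*, the means over the 4 libraries were above those of 30.9%, 35.0% and 42.5% of all peaks. Within a genotype their strength differed. By Ctrl mean, *Edc3* (5.50) and *Susd6* (5, intragenic) were also weak, ranking 190th and 194th among the 230 gene-body peaks. By Tet3smKO:T mean they ranked 38th and 51st. The *Nkd1* peak ranked 38th by Ctrl mean and 227th by Tet3smKO:T mean.

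**Figure D4:**
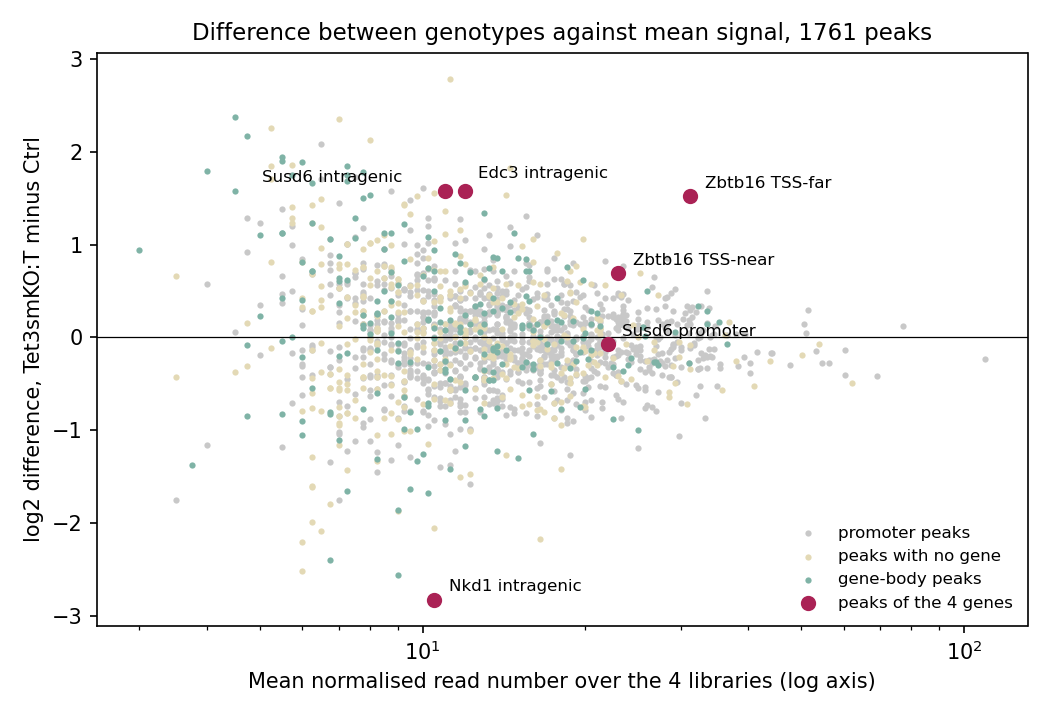
log2 difference between Tet3smKO:T and Ctrl (y axis) against the mean normalised read number over the 4 libraries (x axis, log scale) for all 1761 peaks, with the 6 peaks of the 4 genes in red. The TSS-far *Zbtb16* peak, at a mean of 31.2, lies above all peaks of similar strength, and the *Nkd1* peak, at -2.82, is the lowest of all.

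Same-numbered libraries gave the same direction for each of the 5 intragenic peaks, as the choice of the genes required. In replicates 1 and 2 the log2 difference was 0.85 and 0.54 for the TSS-near and 1.85 and 1.19 for the TSS-far peak of *Zbtb16*, and -2.32 and -3.32 for *Nkd1*. It was 1.58 in both replicates for *Edc3* and for the intragenic peak of *Susd6*. At the *Susd6* promoter the replicates differed in sign, with -0.32 and 0.18. The libraries share a replicate number and are not known to share an animal, so all 4 combinations of a Tet3smKO:T and a Ctrl library were formed as well. These ranged from 0.30 to 1.09 for the TSS-near and from 1.16 to 1.88 for the TSS-far peak of *Zbtb16*, and from 1.36 to 1.81 for *Edc3*. In every combination the TSS-near peak had a smaller difference than the other 4 intragenic peaks.

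**Figure D5:**
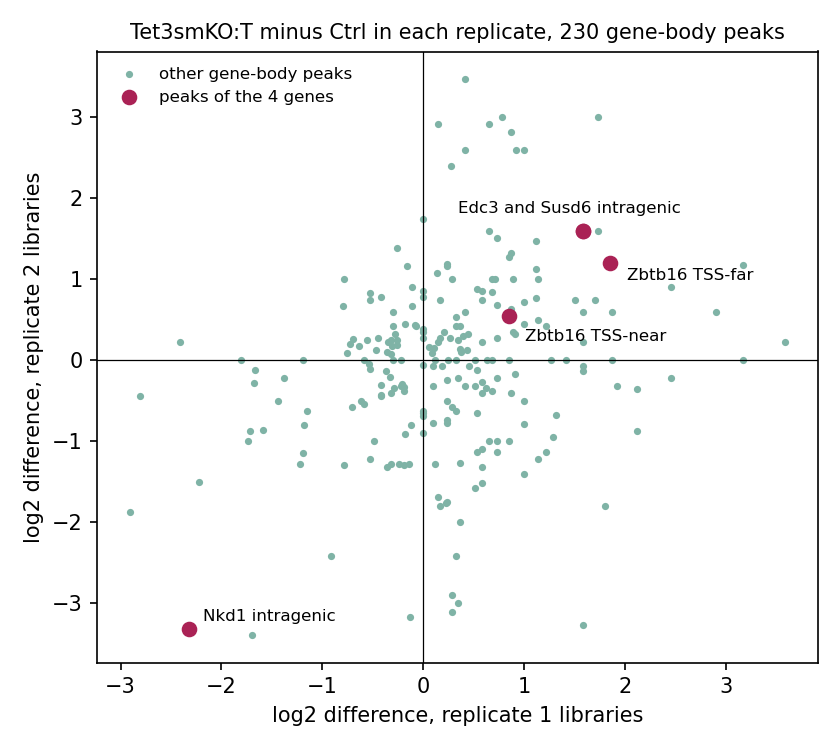
log2 difference between Tet3smKO:T and Ctrl in the libraries of replicate 1 (x axis) and replicate 2 (y axis) for 230 gene-body peaks, with the 5 peaks of the 4 genes in red. *Edc3* and *Susd6* coincide at 1.58 on both axes, and *Nkd1* lies at -2.32 and -3.32.

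Peaks of other genes next to an intragenic peak had a smaller log2 difference than that peak. The closest was the promoter peak of *Clk3*, 41.7 kb from the *Edc3* peak, with 18 and 19 (Ctrl) against 12 and 17 (Tet3smKO:T), opposite in direction to *Edc3*. On the other side of *Edc3*, at 202 kb, the peak of *Cox5a*, a subunit of cytochrome c oxidase, had 15 and 18 (Ctrl) against 21 and 29 (Tet3smKO:T). Next to the *Zbtb16* peaks, the peak of *Zw10* at 318 kb had 9 in both Ctrl libraries and 8 and 14 (Tet3smKO:T), with overlap. On the other side, that of *Bud13* at 2441 kb had 10 and 8 (Ctrl) against 11 and 5 (Tet3smKO:T), also with overlap. The next assigned or unassigned peaks on either side of *Nkd1*, those of *Itfg1* and *Bbs2*, were 2715 and 5543 kb away. *Itfg1*, with 18 and 19 (Ctrl) against 14 and 12 (Tet3smKO:T), was lower without overlap, the same direction as *Nkd1*, at a log2 difference of -0.48. Upstream of *Susd6* the nearest peak, of *Actn1* at 560 kb, overlapped between genotypes. Downstream at 2811 kb, the peak of the splicing factor gene *Rbm25* was lower, with 37 and 44 (Ctrl) against 21 and 17 (Tet3smKO:T). Beside *Edc3*, the peak of *Cox5a* was thus higher and that of *Clk3* lower, both without overlap. Beside *Susd6*, the peak of *Actn1* overlapped and that of *Rbm25* was lower. Whether the differences extend over a region was not tested.

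The peaks most like each intragenic peak were found by the distance of log2(value + 1) over the 4 libraries. *Edc3* and the intragenic peak of *Susd6* were closest to each other, at 0.31, followed for *Edc3* by the promoter peak of *Vapb* at 0.49 and for *Susd6* by that of the Wnt coreceptor gene *Lrp6* at 0.50. The *Nkd1* peak was closest to a gene-body peak of *1700012B07Rik* at 0.63, which had 12 and 20 (Ctrl) against 3 and 1 (Tet3smKO:T). For the TSS-near *Zbtb16* peak the closest were the promoter peaks of *Rrp8* (0.26) and *Cox5a* (0.39). The TSS-far peak had no close match, since the nearest peaks, of *Rer1* and the other *Zbtb16* peak, were at 1.01.

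Some other genes of the pathways to which the 4 genes belong had a peak. Of these peaks, 0 were called by limma or the quasi-Poisson test at an adjusted p-value of 0.05. Over all 1761 peaks limma called 0 and the quasi-Poisson test 5, so 0 among so few peaks says little about the pathways. The share of all annotated genes with a peak was not computed. In the Wnt pathway 9 of 89 genes had a peak, with a median log2 difference of 0.08 as compared to -0.02 over all peaks. *Lrp6* alone passed an unadjusted p-value of 0.05 (1 higher and 0 lower of 9 peaks, beside 3.24% and 3.98% over all peaks), with 6 and 5 (Ctrl) against 13 and 14 (Tet3smKO:T), and *Prickle2*, a planar cell polarity gene, had 8 and 16 (Ctrl) against 17 and 22 (Tet3smKO:T). The peak of *Ctnnb1*, which encodes β-catenin, had 23 and 30 in Ctrl and 23 in both Tet3smKO:T libraries, and those of the corepressor gene *Tle1* (log2 difference 0.43) and the kinase gene *Csnk2a1* (0.65) overlapped between genotypes.

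Of 69 genes of mRNA decapping and P-bodies, 10 had a peak, with a median log2 difference of -0.12 and none past an unadjusted p-value of 0.05 (0 higher, 0 lower). The strongest were *Cnot10*, *Cnot11*, *Lsm14a* and *Eif4e*, with log2 differences of -0.34, -0.01, 0.13 and 0.30, all with overlap. *Pan3*, *Lsm3* and *Ago3*, named here after their values were seen, were lower in Tet3smKO:T without overlap, with -0.74, -0.79 and -1.18. These were 3 of 10 peaks, with 0 higher without overlap, beside 16.6% lower and 17.1% higher over all peaks. The list extended from -1.18 to 0.30. *Edc3* itself had 1.58, at a gene-body peak chosen for its difference. Of the 10 list peaks 9 were promoter peaks, so the list and *Edc3* are not alike. Of 56 genes of the BTB zinc-finger family and PLZF corepressors, 4 had a peak, among them *Zbtb25*, *Hdac5* and *Bcl6*, with log2 differences of -0.28, 0.22 and 0.92. *Bcl6*, a repressor of the same family as PLZF, had 2 and 4 (Ctrl) against 8 and 5 (Tet3smKO:T). Of 53 genes of the p53 response and MHC class I, *Ndfip2* and *Trp53*, which encodes p53, had a peak, and both overlapped between genotypes (log2 differences 0.33 and -0.47).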

How the data were processed

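Pol II pSer5 ChIP–seq libraries of lung SMCs (2 Ctrl, 2 Tet3smKO:T) were grouped by genotype and replicate number of the sample titles. Per the labels' processing notes, the authors used FastQC, Trimmomatic 0.36, Picard 2.17.10, MACS2, DESeq2 and the build mm10, whereas the methods name Reaper for trimming. The aligner was not given in the sources used here. The authors called peaks per library, removed blacklisted regions, unified and recounted the peaks, and describe input subtraction and scaling by DESeq2. The deposited score, rounded to whole numbers by the authors, is a read number normalized between libraries. Since almost all values of the replicate 2 libraries lie on whole reads times a step, it may not include the input subtraction. Further deposited columns give the fraction of each peak that lies in the gene body, how far its centre is from the TSS, and genotype means, which were not needed. There were 0 columns of per-sample values left unused. Input samples were not analysed here.

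Members and gene lists were chosen with earlier results of these data known. Peaks centred at most 5000 nt from the TSS of their gene were called promoter peaks, and all others with a gene were called gene-body peaks. The values were compared with limma 3.58.1 in R 4.3.3 (lmFit, then eBayes with trend) using log2(value + 1) of all 1761 peaks, without renormalization, with Benjamini–Hochberg adjustment. The design had allowed for counts or normalized values, and the latter applied. The step of each library was estimated from the whole-number values, from gaps where it was above 1 (100% of values in Ctrl 2 and 99.8% in Tet3smKO:T 2 could be reached from whole reads) and from values hit by more than 1 read number where it was below 1, where every value can be reached. The estimated reads gave Poisson intervals and a quasi-Poisson alternative. Named genes were the members, the 3 peaks most like each intragenic peak, the neighbouring peaks, and the 4 peaks with the highest mean per list, of which 1 is not reported here. Any other was named after its values were seen. Coordinates were read as 1-based on GRCm38. Whether the table counts from 0 could not be told, which would shift starts by 1 nt. Exons came from GENCODE M21. Python 3.11.15, numpy 2.4.6, pandas 2.3.3, scipy 1.17.1, pysam 0.24.0 and matplotlib 3.10.9 were used. Alternatives were another pseudocount, normalization, filter or test, a replicate block, and leaving out each library.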

Additional observations from a re-analysis of the deposited data

How the results depend on the processing

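With 2 libraries per genotype and 1 to 67 reads per peak and library, depth limits the precision of each of these peaks. The direction of the 5 intragenic differences did not reverse under any alternative run. The genotypes do not overlap at these peaks, so neither another pseudocount nor leaving out a library could have reversed it. With a pseudocount of 10, the log2 differences were 1.14 (TSS-far *Zbtb16*), -1.28 (*Nkd1*), 0.88 (*Edc3*) and 0.85 (*Susd6*, intragenic), since a larger pseudocount shrinks low values, and with 0.1 they were -3.37 (*Nkd1*) and 1.75 (*Susd6*, intragenic). The intragenic peak of *Susd6*, which had no spread between replicates, was also at 1.49 after quantile normalization, 1.62 after scaling to the mean total and 1.70 in the quasi-Poisson fit. Leaving out 1 library gave 0.42 to 0.97 for the TSS-near and 1.18 to 1.87 for the TSS-far peak of *Zbtb16*, -3.32 to -2.32 for *Nkd1*, 1.47 to 1.70 for *Edc3*, 1.58 to 1.58 for the intragenic and -0.23 to 0.09 for the promoter peak of *Susd6*. Over all peaks, the number past an adjusted p-value of 0.05 was 0 in limma, 6 after scaling to the mean total (4 higher, 2 lower), 5 in the quasi-Poisson test (1 higher, 4 lower), and 0 to 0 without 1 library. After scaling, the log2 difference was 1.56 for TSS-far *Zbtb16* (1.52 before) and -2.79 for *Nkd1* (-2.82 before). The prior degrees of freedom of limma set how far each variance is drawn toward the trend over all peaks. They were 3.75 in the main fit and infinite after scaling. The cause of the calls after scaling was not tested. The number at an unadjusted p-value of 0.05 was 127 in limma, 191 in the quasi-Poisson test and 92 to 178 without 1 library, and the number higher moved from 57 to 116 and 106 without Ctrl replicates 1 and 2 and to 15 without Tet3smKO:T replicate 2. A replicate block in limma left 74 peaks at an unadjusted and 0 at an adjusted p-value of 0.05. Deviations from the group means correlated at -0.074 between libraries of the same number. Neither the labels nor the methods say whether these libraries share more than a number, and the correlation cannot decide it. The share of peaks without overlap was 17.1% higher and 16.6% lower, 21.1% higher after scaling to the mean total, 22.6% and 14.8% in gene-body peaks alone, and 4.03% and 4.54% when a gap of at least 5 was required. Of the alternative values computed, 99 stayed within the spread or within 1.5 times the count, and 18 moved beyond it. The 99 include values that could not change, such as distances to the TSS under a stricter promoter limit. The intragenic *Susd6* difference with 1 library left out is also among them.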
